A study of Mus musculus with 10 samples.

Results

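The heat shock response genes described here were Hsf1 and 9 genes for chaperones or their partners, namely Hspa1a, Hspa1b, Hspa8, Bag3, Dnajb1, Hsph1, Hsp90aa1, Hsp90ab1 and Hspd1. They were chosen by name as the transcription factor of the response and chaperone genes commonly counted to it. They make up 10 of the 53465 Ensembl genes in the deposited count table, each was found there by its identifier, and all 10 passed the filter on low counts. RNA was sequenced from erythroblasts, the nucleated precursors of red blood cells, that had been isolated with Miltenyi magnetic beads from the spleens of C57BL/6 mice. All mice had received 5-FU, a chemotherapeutic drug that kills dividing cells, 11 days earlier. Double-null mice (Nrf2/miR-144/451-/-, n = 3 libraries) lacked both the antioxidant transcription factor Nrf2 and the microRNA cluster miR-144/451, Nrf2-null mice (Nrf2-/-, n = 3) lacked Nrf2, miR-144/451-null mice (miR-144/451-/-, n = 2) lacked the cluster, and wild type mice (n = 2) lacked neither. The labels give no age and do not say whether each library came from its own mouse, so the spread that p-values rest on is that between libraries, which may be technical.

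Hsf1 is held inactive in unstressed cells by chaperones. When misfolded proteins occupy those chaperones, Hsf1 is freed, binds heat shock elements, which are repeats of GAA and its complement TTC in alternating direction, and switches on genes for Hsp70, Hsp90 and their partners. Hsp70 proteins bind exposed stretches of unfolded proteins, J-domain proteins deliver those proteins to Hsp70, and nucleotide exchange factors such as Bag3 and Hsph1 make Hsp70 let go. In human erythroblasts, HSP70 has been reported to protect the erythroid transcription factor GATA1 from caspase cleavage.

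Promoter windows from RefSeq (GRCm38.p6, 250 bases before to 50 after each start) were found for 6 of the 10 genes, and they are shown because the inducible Hsp70 pair and Hspd1, whose values are given below, carry the repeats in them. Both strands of 32851 promoters were searched for GAANNTTC, a heat shock element of 2 units, which was in 7.86% of them, and for an element of 3 units, GAANNTTC followed by NNGAA, which contains the shorter motif and was in 0.603%. The Hspa1a and Hspa1b windows were identical at 296 of 300 bases (98.7%), and each held the same 2-unit match at 104 to 97 bases before the start. A window of Hspd1 held 4 alternating units, which gave 2 overlapping 3-unit matches at 144 to 127 bases before the start. The 30 bases around each match follow, 5′ to 3′ along the gene, with the units in capitals.
Hspa1a, chr17:34972242-34972271, minus strand: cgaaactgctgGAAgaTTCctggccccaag
Hspa1b, chr17:34959324-34959353, minus strand: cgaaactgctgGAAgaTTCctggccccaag
Hspd1, chr1:55088053-55088082, minus strand: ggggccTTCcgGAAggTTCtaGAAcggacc
The 2 overlapping windows of Hsph1 held a 3-unit match that begins 37 or 16 bases after the start, depending on which start is used, and Bag3 held a 2-unit match that begins 43 bases after its start. The windows of Dnajb1 held neither motif, which says only that these letters are not in those windows. The core of the antioxidant response element, the site through which Nrf2 acts (TGACNNNGC, found in 12.392% of promoters), matched in Dnajb1 and Hsph1 and in none of the other 4 genes with a window. These matches describe the letters and do not show binding.

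The mature microRNAs that the cluster encodes are shown because the search for their sites in the 10 genes depends on their seeds (bases 2 to 8, in capitals).
mmu-miR-144-3p: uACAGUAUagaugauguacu
mmu-miR-451a: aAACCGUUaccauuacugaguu
Among tested genes with an annotated 3′ UTR, a match to the miR-144-3p seed was found in 13.32% and a match to the miR-451a seed in 1.94%. Of the 10 heat shock response genes, Hsp90aa1 alone held such a match, for miR-144-3p, within the stretch ttctacatgtgATACTGTgatactataggt of its 3′ UTR.

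Libraries held 13087827 to 15131036 counts, of which the 10 genes took 0.193% to 0.365%. The 10 erythroblast markers were detected in every library and summed to 60297 to 103834 normalised CPM (each count relative to the library total, corrected by the TMM factor). Mir144 had 0 counts in each double-null and miR-144/451-null library, against 9 to 17 in Nrf2-null and wild type libraries. Mir451a had 0 counts in all 10 libraries, so these counts do not check that member of the cluster. Nfe2l2, which encodes Nrf2, had 46.1 to 62.7 CPM in the libraries labelled as lacking Nrf2, against 58.2 to 86.1 CPM in the others, and a count over the whole gene does not show a deleted part. By Xist and Y-linked counts, double-null replicate 3 and both wild type libraries came from females and the rest from males, so sex and genotype cannot be told apart when a single null is set against wild type. The same limit holds for the interaction given below, which contains such a comparison.

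**Figure D1:**
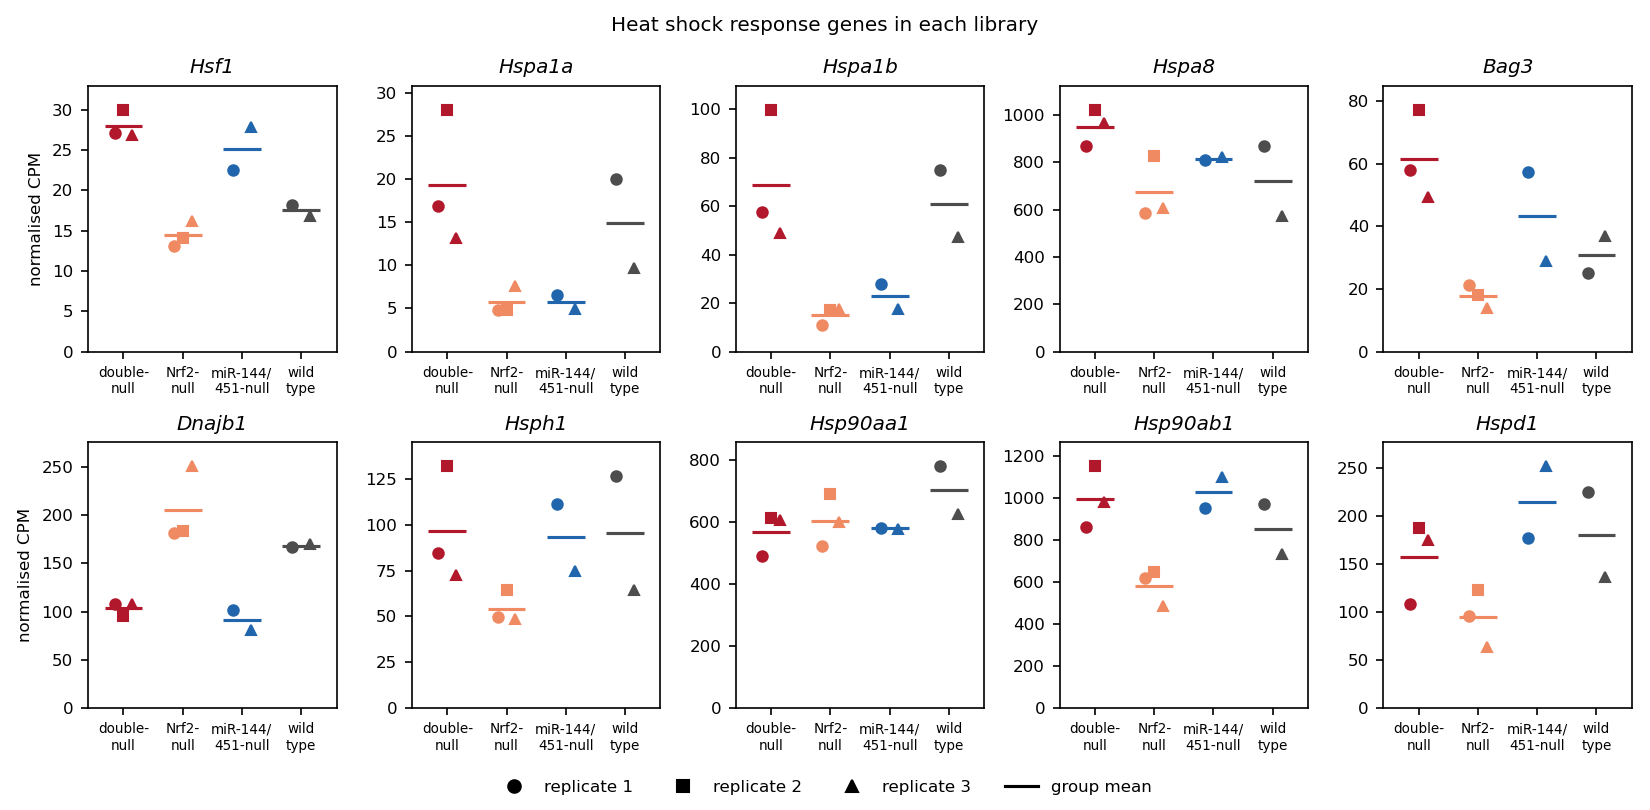
Normalised CPM (y axis, from 0, a separate scale per gene) of the 10 heat shock response genes in each library, by genotype, with bars at the group means and marker shapes for the replicate number. Hspa1a and Hspa1b stood lower in the Nrf2-null and miR-144/451-null libraries than in the double-null and wild type libraries, while Dnajb1 stood lower in the double-null and miR-144/451-null libraries than in the Nrf2-null and wild type libraries.

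Most calls among the 10 genes came with loss of the cluster in mice that also lacked Nrf2. In double-null against Nrf2-null erythroblasts, Hsf1, Hspa1a, Hspa1b, Bag3 and Hsp90ab1 rose and Dnajb1 fell, each at an adjusted p under 0.05 in edgeR's quasi-likelihood test with Benjamini-Hochberg adjustment over 14110 genes. These 6 of 10 calls stand beside 27.3% of all tested genes called in the same comparison, and the groups did not overlap for 8 of the 10 genes, against 45.2% of all tested genes. The median log2 fold change of the 10 genes was 0.80, against 0.02 over all tested genes. All 6 calls held in each of the 10 fits that left out a library. Among male libraries only, 7 of 10 genes were called, against 18.8% of all genes tested in that setting. In these bulk samples, fewer cells of a type and less RNA per cell cannot be told apart.

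Loss of the cluster was also measured with Nrf2 present. In miR-144/451-null against wild type erythroblasts, Dnajb1 fell and the other 9 genes did not pass the test, so 1 of 10 was called, against 4.63% of all tested genes. The median log2 fold change was 0.07, against 0.02 over all tested genes, and the groups did not overlap for 5 of the 10 genes, against 47% of all tested genes.

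Loss of Nrf2 on its own called none of the 10 genes by edgeR, against 0.191% of all tested genes in Nrf2-null against wild type erythroblasts. At an unadjusted p under 0.05 there were 6 of 10, against 12.1% of all tested genes, all 6 with negative log2 fold changes. DESeq2 called 1 of the 10, against 0.498% of the 27087 genes it was given. The median of the 10 genes was -0.68, against -0.02 over all tested genes. In double-null against miR-144/451-null erythroblasts edgeR called none of the 10, against 0.0638% of all tested genes. There were 2 at an unadjusted p under 0.05 (10.7% of all tested genes) and 2 by DESeq2 (0.676% of the genes it was given). In double-null against wild type erythroblasts Hsf1 rose and Dnajb1 fell, so 2 of 10 were called, against 17.2% of all tested genes. These comparisons share libraries with each other and with the pair above, so their values are not independent of them.

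**Figure D2:**
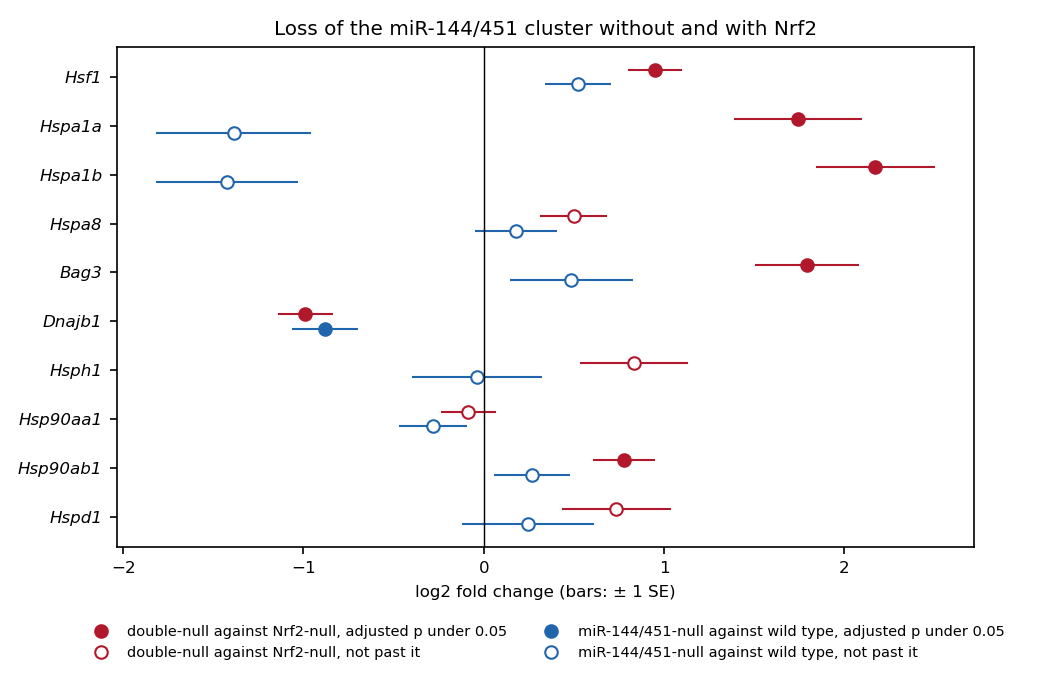
Log2 fold change (x axis, bars ± 1 SE) of each of the 10 genes for double-null against Nrf2-null (red) and miR-144/451-null against wild type (blue), with filled points at an adjusted p under 0.05. Hspa1a and Hspa1b lie right of 0 in the first comparison and left of it in the other, while Dnajb1 lies near -1 in both.

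Hsf1, the master transcription factor of the response, stood at 27.1, 29.9 and 26.9 CPM in the double-null libraries, against 13.1, 14.1 and 16.2 CPM in the Nrf2-null libraries. All 3 double-null libraries lay above all 3 Nrf2-null libraries. It rose 1.93-fold in double-null erythroblasts (log2 fold change 0.95 ± 0.15 SE, adjusted p = 0.00119, edgeR). It stood at 22.5 and 27.9 CPM in the miR-144/451-null libraries, against 18.1 and 16.9 CPM in the wild type libraries, without overlap. That difference of 0.52 ± 0.18 on the log2 scale did not pass the test (adjusted p = 0.141, edgeR). Against wild type, the double-null libraries were higher by 0.67 ± 0.17 (adjusted p = 0.0206, edgeR), a call that was lost without wild type replicate 1 (adjusted p = 0.0789), without wild type replicate 3 (0.138), without scaling factors (0.0836) and with a term for sex (0.146). Of the 10 genes Hsf1 had the lowest level per length, with a mean of 3.04 ± 0.99 FPKM (SD, 10 libraries).

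Hspa1a and Hspa1b are a neighbouring pair on chromosome 17 that encode the stress-inducible Hsp70, the protein made most sharply after heat or other protein damage. Hspa1b stood at 57.5, 99.7 and 49.0 CPM in the double-null libraries, against 10.8, 17.2 and 17.8 CPM in the Nrf2-null libraries. Every double-null library lay above every Nrf2-null library, and double-null replicate 2 was the highest of all 10 libraries. The rise was 4.51-fold (log2 fold change 2.17 ± 0.33, adjusted p = 0.00148, edgeR). Hspa1b had 27.9 and 17.8 CPM in the miR-144/451-null libraries, against 74.8 and 47.5 CPM in the wild type libraries. Here the libraries that lacked the cluster were the lower ones, without overlap, and the log2 fold change of -1.42 ± 0.39 did not pass the test (adjusted p = 0.0773, edgeR). It passed without double-null replicate 2 (adjusted p = 0.0327), a library of neither group, which enters through the shared filter, scaling and estimate of spread. It also passed by DESeq2 (adjusted p = 0.00455) and without the low-count filter (2.25e-07). Over all alternatives its adjusted p ranged up to 0.335.

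In Nrf2-null against wild type erythroblasts, Hspa1b had a log2 fold change of -2.005 ± 0.353 (adjusted p = 0.0901, edgeR), which passed without double-null replicate 2 (adjusted p = 0.0173). It also passed with the 2 groups fitted alone (0.0399), by DESeq2 (7.05e-06) and without the low-count filter (4.11e-20). Over all alternatives its adjusted p ranged up to 0.474. These groups did not overlap, and the Nrf2-null libraries were the lower ones.

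Hspa1a, the other gene of the pair, set the same pairs of groups apart. It had 16.9, 28.0 and 13.2 CPM in the double-null libraries, against 4.84, 4.81 and 7.65 CPM in the Nrf2-null libraries, again without overlap. It rose 3.35-fold (log2 fold change 1.75 ± 0.36, adjusted p = 0.00494, edgeR). In the miR-144/451-null libraries it had 6.49 and 4.93 CPM, against 20.0 and 9.69 CPM in the wild type libraries, a log2 fold change of -1.39 ± 0.43 that did not pass the test (adjusted p = 0.103, edgeR). That change passed by DESeq2 (adjusted p = 0.0212) and without the low-count filter (0.00155). Over all alternatives its adjusted p ranged up to 0.505. The transcripts of this pair share most of their sequence, since 63.8% of the 31-base words of Hspa1a occur in Hspa1b, and the split of reads between them is therefore uncertain.

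Summed over the pair, the counts came to 74.4, 128 and 62.2 CPM in the double-null libraries, against 15.7, 22.0 and 25.4 CPM in the Nrf2-null libraries. The sum was 34.4 and 22.7 CPM in the miR-144/451-null libraries, against 94.8 and 57.2 CPM in the wild type libraries. The double-null and wild type libraries overlapped, and every single-null library lay below both. The summed pair rose 4.19-fold in double-null against Nrf2-null erythroblasts (log2 fold change 2.07 ± 0.33, adjusted p = 0.00178, edgeR), and its log2 difference between double-null and wild type was 0.21, with a 95% confidence interval of -0.57 to 0.99. Against wild type it was lower by -1.86 ± 0.35 in Nrf2-null erythroblasts (adjusted p = 0.107, edgeR) and by -1.41 ± 0.39 in miR-144/451-null erythroblasts (adjusted p = 0.0771, edgeR), neither past the threshold. Against miR-144/451-null erythroblasts, the double-null value was 1.63 ± 0.37 (adjusted p = 0.205, edgeR).

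Whether the effect of losing the cluster differed with Nrf2 status was tested as an interaction, the double-null minus Nrf2-null difference less the miR-144/451-null minus wild type difference. The latter sets male against female libraries, so sex and genotype cannot be told apart in this test either. None of the 10 genes passed this test by edgeR, against 0.0638% of all tested genes, and 3 had an unadjusted p under 0.05, against 4.46%. DESeq2 called 2, Hspa1a and Hspa1b, against 0.0886% of the genes it was given. The largest was Hspa1b at 3.59 ± 0.52 on the log2 scale (unadjusted p = 4.75e-05, adjusted p = 0.067, edgeR), which ranked 10 of 14110 genes by p. Hspa1a stood at 3.13 ± 0.56 (adjusted p = 0.149) and Bag3 at 1.31 ± 0.44 (adjusted p = 0.999), both by edgeR. The Hspa1b value passed the threshold by DESeq2 (adjusted p = 1.01e-09), without TMM scaling (0.0403) and without double-null replicate 2 (0.0363). It also passed without the low-count filter (1.56e-30), a setting in which this test called 232 genes, against 9 in the main fit. With a term for sex, the interaction test called 2 of all 14110 tested genes, and Hspa1b did not pass. The adjusted p of Hspa1b over the alternatives ranged up to 0.32.

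**Figure D3:**
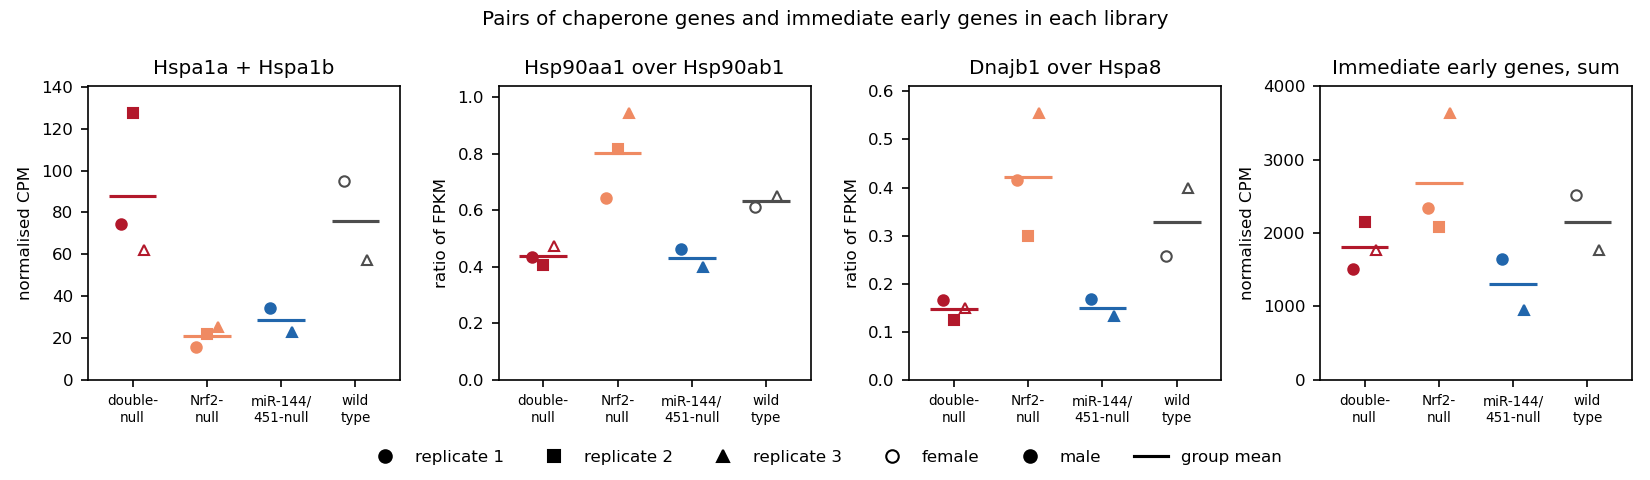
Per library and genotype, from left to right: the summed normalised CPM of Hspa1a and Hspa1b, the ratio of Hsp90aa1 to Hsp90ab1 FPKM, the ratio of Dnajb1 to Hspa8 FPKM, and the summed normalised CPM of 18 immediate early genes, with bars at the group means and open symbols for libraries from females. The Hspa1 sum is lowest in the Nrf2-null and miR-144/451-null libraries, and both ratios are lower in the double-null and miR-144/451-null libraries than in the Nrf2-null and wild type libraries.

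Hspa8 encodes the constitutive Hsp70 of the cytosol, which folds newly made proteins in unstressed cells. It had 870, 1021 and 964 CPM in the double-null libraries, against 587, 828 and 606 CPM in the Nrf2-null libraries, with no overlap. The log2 fold change of 0.50 ± 0.19 did not pass the test (adjusted p = 0.0671, edgeR), but did so without Nrf2-null replicate 2 (adjusted p = 0.0319), wild type replicate 1 (0.0458) or wild type replicate 3 (0.0368), with those groups fitted alone (0.0478), by DESeq2 (0.0488) and without the low-count filter (0.0145). The miR-144/451-null libraries, at 810 and 823 CPM, lay between the wild type libraries, at 871 and 572 CPM. The inducible pair together ran at a ratio of 0.0978 to 0.190 to Hspa8 by FPKM in double-null erythroblasts, against 0.0403 to 0.0633 in Nrf2-null erythroblasts. These did not overlap, and the exact permutation test gave a two-sided p of 0.1, the smallest that 3 against 3 libraries allow. The ratio was 0.0418 and 0.0646 in the miR-144/451-null libraries, against 0.152 and 0.165 in the wild type libraries.

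Bag3 encodes a nucleotide exchange factor of Hsp70 that also guides damaged proteins into autophagy. It stood at 58.0, 77.2 and 49.4 CPM in the double-null libraries, against 21.2, 18.0 and 13.9 CPM in the Nrf2-null libraries, with no overlap. It rose 3.47-fold (log2 fold change 1.79 ± 0.29, adjusted p = 0.00164, edgeR). The miR-144/451-null libraries, at 57.5 and 29.1 CPM, differed from each other by more than the wild type libraries, at 25.01 and 36.9 CPM, and the groups overlapped. Their log2 difference was 0.48, with a 95% confidence interval of -0.27 to 1.24. Against wild type, double-null Bag3 was at 0.99 ± 0.32 on the log2 scale and missed the threshold (adjusted p = 0.058, edgeR), but passed without miR-144/451-null replicate 1 (adjusted p = 0.0233) or 3 (0.017), with those groups fitted alone (0.0322), by DESeq2 (0.0145), without the low-count filter (2.73e-05) and without scaling factors (0.0481).

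Hsph1 encodes Hsp110, another exchange factor of Hsp70. It had 84.7, 132 and 72.8 CPM in the double-null libraries, against 49.7, 64.4 and 48.5 CPM in the Nrf2-null libraries. The groups did not overlap, and the log2 fold change of 0.83 ± 0.30 did not pass the test (adjusted p = 0.0649, edgeR). It passed without wild type replicate 1 (adjusted p = 0.0364) or 3 (0.0353), among male libraries (0.0261) and with a block for replicate number (0.0137). It also passed with those groups fitted alone (0.0286), by DESeq2 (0.0211) and without the low-count filter (7.33e-06). The miR-144/451-null libraries, at 111 and 75.0 CPM, lay within the range of the wild type libraries, at 127 and 64.3 CPM.

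Dnajb1, the J-domain protein Hsp40 that hands unfolded proteins to Hsp70, moved against the other called genes. It stood at 107, 95.4 and 107 CPM in the double-null libraries, against 182, 184 and 251 CPM in the Nrf2-null libraries. Every double-null library lay below every Nrf2-null library, and expression fell to 0.504 of the Nrf2-null level (log2 fold change -0.99 ± 0.15, adjusted p = 9.74e-04, edgeR). It had 102 and 81.0 CPM in the miR-144/451-null libraries, against 167 and 170 CPM in the wild type libraries, and again the libraries without the cluster were the lower ones. This fall of 0.88 on the log2 scale (SE 0.18) passed the test (adjusted p = 0.0233, edgeR). It was no longer called without miR-144/451-null replicate 1 (adjusted p = 0.0693) or 3 (0.136), without wild type replicate 1 (0.117) or 3 (0.141), when those groups were fitted on their own (0.0747), or with a term for sex (0.406). The interaction was -0.11, with a 95% confidence interval of -0.63 to 0.41. Against wild type, double-null Dnajb1 fell by 0.70 (SE 0.17, adjusted p = 0.0161, edgeR), a call lost without wild type replicate 1 (adjusted p = 0.107) or 3 (0.0938), without double-null replicate 3 (0.0538) and with a term for sex (0.153).

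The ratio of Dnajb1 to Hspa8 by FPKM set the same groups apart. It was 0.125 to 0.166 in double-null erythroblasts, against 0.298 to 0.556 in Nrf2-null erythroblasts (exact permutation test, two-sided p = 0.1, the smallest that 3 against 3 libraries allow). It was 0.132 and 0.169 in the miR-144/451-null libraries, against 0.257 and 0.399 in the wild type libraries, where 2 against 2 libraries cannot go below an exact two-sided p of 0.333.

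Hsp90ab1 and Hsp90aa1 encode the constitutive and the inducible form of cytosolic Hsp90, the chaperone that matures kinases and steroid receptors. Hsp90ab1 had 860, 1149 and 978 CPM in the double-null libraries, against 616, 644 and 484 CPM in the Nrf2-null libraries. All double-null libraries were the higher ones, and the gene rose 1.71-fold (log2 fold change 0.78 ± 0.17, adjusted p = 0.00743, edgeR). It had 952 and 1099 CPM in the miR-144/451-null libraries, against 972 and 733 CPM in the wild type libraries, which overlapped.

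Hsp90aa1 was called in none of the 5 pairwise comparisons by edgeR. It had 489, 611 and 605 CPM in the double-null libraries, against 521, 690 and 599 CPM in the Nrf2-null libraries, and these overlapped. The log2 difference was -0.09, with a 95% confidence interval of -0.42 to 0.25 (adjusted p = 0.71, edgeR). It had 580 and 577 CPM in the miR-144/451-null libraries, both below the 779 and 626 CPM of the wild type libraries, a log2 difference of -0.28 that did not pass the test (adjusted p = 0.486, edgeR). The part of the miR-144-3p seed match of its 3′ UTR in these values was not tested. The ratio of Hsp90aa1 to Hsp90ab1 by FPKM was 0.406 to 0.472 in double-null erythroblasts, against 0.645 to 0.945 in Nrf2-null erythroblasts, and 0.401 and 0.465 in the miR-144/451-null libraries, against 0.611 and 0.652 in the wild type libraries. Neither pair overlapped, at the smallest exact two-sided permutation p that each design allows (0.1 and 0.333).

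Hspd1 encodes Hsp60, the chaperonin of the mitochondrial matrix. It had 108, 187 and 175 CPM in the double-null libraries, against 95.9, 123 and 63.8 CPM in the Nrf2-null libraries, and the groups overlapped. The log2 fold change of 0.74 ± 0.30 did not pass the test (adjusted p = 0.0992, edgeR), but did so without double-null replicate 1 (adjusted p = 0.0485), by DESeq2 (0.0387) and without the low-count filter (6.28e-05). It had 177 and 252 CPM in the miR-144/451-null libraries, against 225 and 136 CPM in the wild type libraries, which also overlapped. Reads of Hspd1, Hspa8 and Hsp90aa1 are uncertain in part, because 50.1%, 43.5% and 51.4% of their 31-base words also occur in other annotated genes, mostly pseudogenes, and the sources used here do not say how the authors' counting treated such reads.

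**Figure D4:**
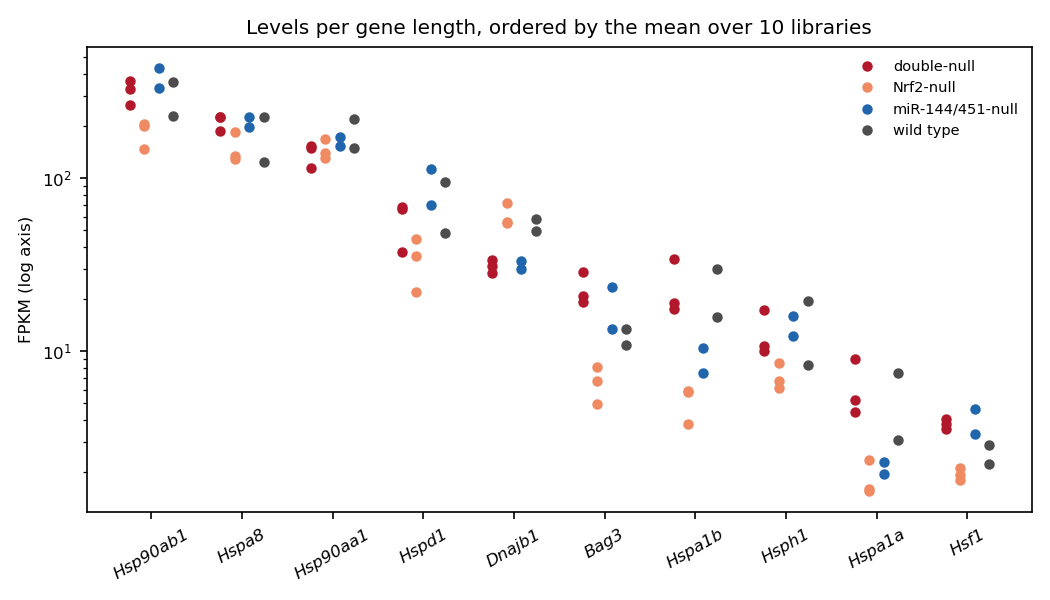
FPKM (log axis) of each gene in each library by genotype, with genes in order of their mean over the 10 libraries. The genes span from a mean of 286.95 FPKM for Hsp90ab1 to 3.04 FPKM for Hsf1, and Hspa1b has the widest spread between libraries.

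Per length, both Hsp90 genes and Hspa8 stood highest. Hsp90ab1 had a mean of 286.95 ± 90.56 FPKM (SD over 10 libraries of 4 genotypes), Hspa8 186 ± 42.4 FPKM and Hsp90aa1 155 ± 28.7 FPKM. Hsp90ab1 exceeded Hspa8 in all 10 libraries, and Hspa8 exceeded Hsp90aa1 in 8. Hspd1 (60.0 ± 28.0 FPKM) and Dnajb1 (44.6 ± 15.2 FPKM) followed, and their order held in 6 libraries of 10. Bag3 (15.02 ± 7.85 FPKM), Hspa1b (14.95 ± 10.4 FPKM) and Hsph1 (11.55 ± 4.63 FPKM) did not differ from each other beyond their spread, with Bag3 above Hspa1b in 6 libraries and Hspa1b above Hsph1 in 5. Hspa1a averaged 3.91 ± 2.62 FPKM and exceeded Hsf1 in 6 libraries. Hspa1b varied most, with its highest library at 34.1 FPKM, which is 8.97 times its lowest.

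The genes whose log2 CPM followed Hspa1b most closely over the 10 libraries, among 8407 compared, were Hspa1a (Pearson r = 0.948), Mri1 (0.867), Xpa (0.831), Acbd6 (0.823) and Rab5if (0.819). Among those closest to Dnajb1 were Sp3 (0.992), Tmed2 (0.988), Ppwd1 (0.987) and Tmpo (0.985). These are descriptions over libraries that share genotypes.

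Of 88 other chaperone and stress-responsive genes in 8 lists, 78 passed the filter. In double-null against Nrf2-null erythroblasts 32 of them rose and 3 fell, beside 14.4% and 12.9% of all tested genes. The median log2 fold change of the 78 was 0.37, against 0.02 over all tested genes. The 35 calls became 20 without Nrf2-null replicate 1, 22 without Nrf2-null replicate 3, 23 without double-null replicate 3, 21 with a term for sex and 22 among male libraries. Over all tested genes the called share was 27.3% in the main fit. In those settings, in the same order, it was 18.9%, 19.7%, 20.7%, 20.4% and 18.8%. Of 14 genes of the cytosolic chaperonin and prefoldin, which fold actin and tubulin, 10 rose and 0 fell. Cct7 rose by 1.17 ± 0.14, Cct6a by 1.02 ± 0.19 and Cct2 by 0.90 ± 0.15 on the log2 scale, each past the adjusted threshold of edgeR.

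Of 17 tested genes of the Hsp70 family and its exchange factors, 6 rose and 1 fell. Hspa4, which encodes an Hsp110 protein, had 166, 191 and 174 CPM in the double-null libraries, against 83.7, 92.3 and 89.9 CPM in the Nrf2-null libraries. It rose with a log2 fold change of 1.00 ± 0.12 (adjusted p = 2.42e-04, edgeR). Its close relative Hspa4l went the other way, with 157, 140 and 107 CPM in the double-null libraries, against 246, 242 and 239 CPM in the Nrf2-null libraries. Neither gene overlapped between the groups, and Hspa4l fell by 0.85 on the log2 scale (adjusted p = 0.00185, edgeR). In the same list Bag2 rose by 1.12 ± 0.20 and Bag6 by 0.77 ± 0.13.

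The counts of the other lists stand beside the same shares of all tested genes, 14.4% called higher and 12.9% called lower. Of 12 Hsp90 co-chaperones 5 rose, among them Chordc1 (1.10 ± 0.15), Ppp5c (0.82 ± 0.17), Stip1 (0.52 ± 0.12) and Cdc37, the partner that brings kinases to Hsp90 (0.45 ± 0.11). Of 14 J-domain genes 5 rose and 1 fell, with Dnaja4 at 0.77 ± 0.15, Dnajb12 at 0.80 ± 0.16, Dnajc2 at 0.81 ± 0.20 and Dnajb4 at -0.54 ± 0.15. Of 10 mitochondrial chaperones and proteases 3 rose, namely Lonp1 (0.72 ± 0.16), Dnaja3 (0.69 ± 0.21) and Clpp (0.72 ± 0.23). Both tested heat shock factors and regulators rose, Hsf2 by 0.75 ± 0.24 and Hsbp1, which encodes an inhibitor of Hsf1, by 0.55 ± 0.19. Of the small heat shock proteins Hspb6 fell by 0.75 on the log2 scale, and Hspb1, Hspb2, Hspb8 and Cryab were too low to test. Of 8 other stress-responsive genes tested, 1 rose, the autophagy adaptor gene Sqstm1 (0.80 ± 0.22). That list, named heat-inducible in the figure, also held Rbm3 and Cirbp, which are better known as cold-inducible.

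With Nrf2 present the same 78 genes held 2 calls in miR-144/451-null against wild type erythroblasts, both higher, against 2.4% of all tested genes called higher. Hspa4 rose by 0.65 ± 0.14 (adjusted p = 0.0293) and Dnajb12 by 0.76 ± 0.19 (adjusted p = 0.0461), both by edgeR. These 2 calls became 0 without either miR-144/451-null library, wild type replicate 3 or Nrf2-null replicate 1, and 1 without wild type replicate 1, Nrf2-null replicate 2 or 3, or double-null replicate 2. Over the other alternatives there were 0 to 5 calls. With a term for sex, 1 of all 14110 tested genes was called in this comparison, against 653 in the main fit. The median of the 78 genes was 0.16, against 0.02 over all tested genes. None of the 78 was called by edgeR in Nrf2-null against wild type erythroblasts, against 0.191% of all tested genes. In double-null against miR-144/451-null erythroblasts edgeR also called none, against 0.0638%. At an unadjusted p under 0.05 there were 20 and 5 of the 78, against 12.1% and 10.7% of all tested genes. DESeq2 called 1 and 0 of them, against 0.498% and 0.676% of the 27087 genes it was given.

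**Figure D5:**
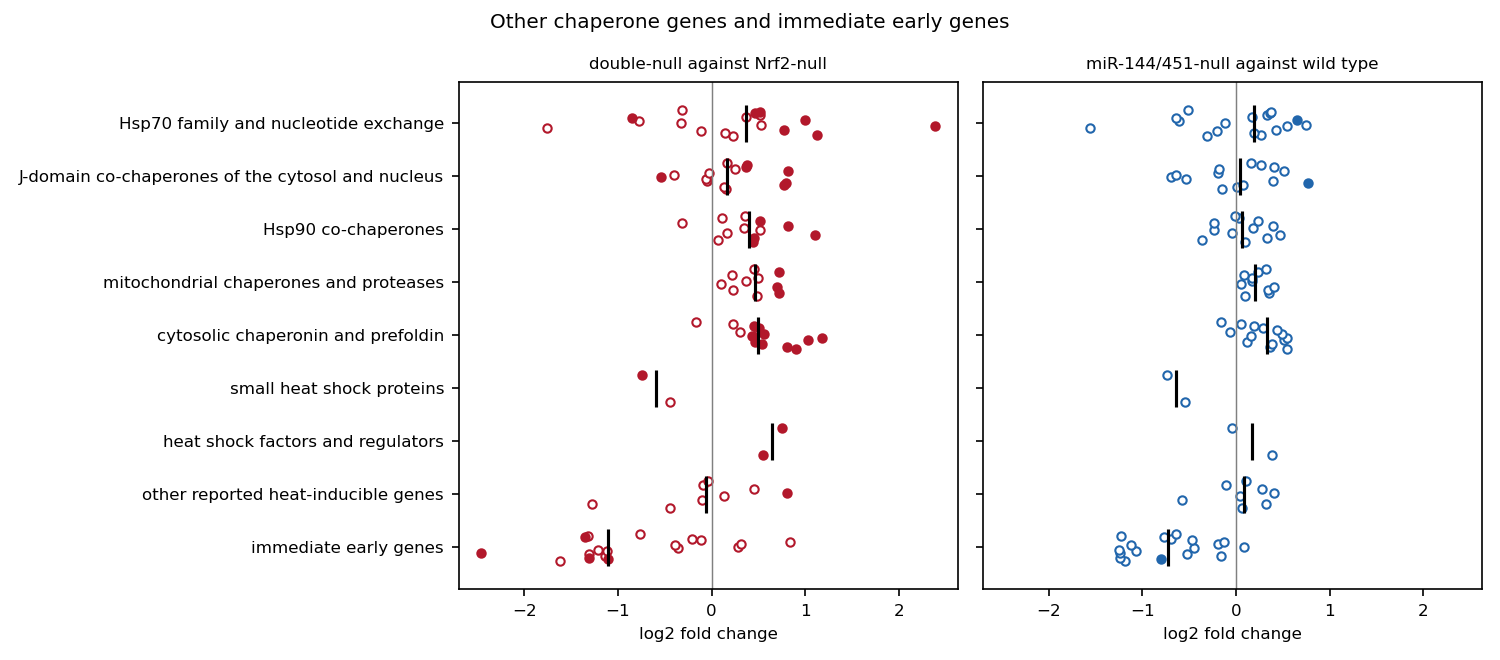
Log2 fold change (x axis) of each tested gene in 8 chaperone lists and 1 list of immediate early genes, for double-null against Nrf2-null (left) and miR-144/451-null against wild type (right), with filled points at an adjusted p under 0.05 and black bars at list medians. The chaperonin list lies almost wholly right of 0 on the left side, with a median of 0.50, and the immediate early genes lie mostly left of 0 on both sides, with medians of -1.11 and -0.73.

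Other measures moved with these groups. Of 18 immediate early genes, which cells switch on within minutes of handling or signalling, 4 fell and 0 rose in double-null against Nrf2-null erythroblasts, beside 12.9% of all tested genes called lower, and the list's median log2 fold change was -1.11. The 4 were Btg2 (-1.10 ± 0.15), Egr3 (-2.46 ± 0.50), Dusp1 (-1.31 ± 0.33) and Myc (-1.35 ± 0.36). The summed level of all 18 genes was 1506 to 2154 CPM in double-null libraries, against 2087 to 3638 CPM in Nrf2-null libraries. In miR-144/451-null against wild type erythroblasts 1 of the 18 fell, beside 4.63% of all tested genes called, namely Btg2 (-0.80 ± 0.18, adjusted p = 0.0291, edgeR). With a term for sex, 0 of the 14110 tested genes were called lower in this comparison. The sums of the 18 genes were 957 and 1643 CPM in miR-144/451-null libraries, against 1770 and 2519 CPM in wild type libraries.

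Markers of B cells, which also live in the spleen, fell in double-null against Nrf2-null erythroblasts for 10 of 11 genes, beside 12.9% of all tested genes called lower and 14.4% called higher, and they summed to 370 to 802 CPM in the double-null libraries, against 1001 to 1143 CPM in the Nrf2-null libraries. Macrophage markers (0 of 10 called) summed to 85.5 to 376 CPM in double-null libraries, against 320 to 1088 CPM in Nrf2-null libraries. T cell markers (1 of 8 lower) summed to 15.8 to 66.9 CPM in double-null libraries, against 65.5 to 81.6 CPM in Nrf2-null libraries, and NK cell markers (1 of 6 lower) to 5.76 to 23.8 CPM in double-null libraries, against 20.3 to 31.5 CPM in Nrf2-null libraries. Neutrophil markers (0 of 8 called) summed to 1082 to 1187 CPM in the double-null libraries, against 172 to 1139 CPM in the Nrf2-null libraries, and megakaryocyte markers (2 of 6 higher and 1 lower) to 147 to 196 CPM in double-null libraries, against 70.2 to 105 CPM in Nrf2-null libraries. In miR-144/451-null against wild type erythroblasts B cell markers summed to 728 and 983 CPM in miR-144/451-null libraries, against 1304 and 1660 CPM in wild type libraries, with 0 of 11 called. A marker stood at 0 in only 2 instances, 1 NK cell marker in double-null replicate 1 and 1 megakaryocyte marker in Nrf2-null replicate 3. Mitochondrially encoded genes took 1.22% to 1.41% of all counts in double-null erythroblasts, against 0.843% to 1.02% in Nrf2-null erythroblasts. Their share was 1.58% and 1.80% in miR-144/451-null libraries, against 1.13% in both wild type libraries. Globin genes took 9.85% to 12.2% of all counts in double-null erythroblasts, against 7.07% to 9.47% in Nrf2-null erythroblasts. Of 10 erythroblast markers 2 fell and 0 rose in that comparison, with a median log2 fold change of -0.35, and they summed to 85432 to 103834 CPM in double-null erythroblasts, against 80970 to 96467 CPM in Nrf2-null erythroblasts. The part of these measures in the values of the heat shock response genes was not tested.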

How the data were processed

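Raw counts per Ensembl gene were deposited by the authors for all libraries in a common table, with FPKM values in a file per library. The gene length implied by count, library total and deposited FPKM was constant per gene to within 0.1% for all 193495 values compared. These lengths were not checked against an annotation. The FPKM values served for levels between genes. Per the submitters' processing notes, the build was mm9 and the tools included HISAT2 2.1.0, TopHat2, Bowtie2 2.2.3 and CASAVA. The sources used here give no counting tool or strand setting, so overlapping genes (Hspa1a with Gm20481, Hspd1 with Hspe1, Hspa8 with 3 snoRNA genes, Bag3 with 2610306O10Rik) could share reads. Symbols came from GENCODE M21 (99.6% of identifiers matched), which also gave the 3′ UTRs, and promoters and microRNAs came from RefSeq.

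All 10 libraries entered a robust quasi-likelihood fit in edgeR 4.0.16 (R 4.3.3) by genotype, with TMM factors, filterByExpr and 6 residual degrees of freedom. A call is an adjusted p under 0.05, two-sided. Replicates differed by more than sampling noise (chi-square per degree of freedom 15.5 to 27.2). The fit was tested on simulated data with changes of 2-fold and 4-fold. In double-null against Nrf2-null it called 36% of the 2-fold and 70% of the 4-fold changes. In miR-144/451-null against wild type it called 18% and 64%, so missed calls were common in the simulated data. Of 112 and 85 simulated calls, 8 and 4 were false. The real comparisons held 3850 and 653 calls. With fewer changed genes the adjusted threshold is stricter, so these recovered shares need not hold for the real comparisons. The alternatives used DESeq2 1.42.0, other scaling, other filters, a replicate block, a term for sex, male libraries, globin genes removed, the Hspa1a and Hspa1b counts summed, and each library left out. The 10 genes and the wider lists were chosen with earlier results of these data known. From each wider list, up to 4 genes with the smallest p among the calls were named, and likeness was ranked among genes of at least 5 CPM on average, of which 1 that the rule names is not reported here.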

Additional observations from a re-analysis of the deposited data

How the results depend on the processing

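In double-null against Nrf2-null erythroblasts, 6 to 9 of the 10 genes were called over the alternatives and 6 to 8 with a library left out, the 6 called genes among them each time, and 5 of 9 with Hspa1a and Hspa1b summed into 1. In miR-144/451-null against wild type erythroblasts, the 1 call became 3 with DESeq2 and without the low-count filter, 0 with those groups fitted alone or a term for sex, and 0 to 2 with a library left out. In Nrf2-null against wild type, the count of 0 became 1 with DESeq2, 5 without the filter, 1 with those groups alone and 0 to 1 with a library left out. In double-null against miR-144/451-null, the 0 became 2 with DESeq2 and without the filter. In double-null against wild type, the 2 became 3 with DESeq2, without the filter and with those groups alone, 1 with the replicate block, 0 with a term for sex and 0 to 3 with a library left out. For the interaction, the 0 became 1 without scaling, 2 with DESeq2, 3 without the filter and 0 to 1 with a library left out. Leaving out the filter raised the calls over all genes, from 27 to 716 in Nrf2-null against wild type. They rose from 9 to 743 in double-null against miR-144/451-null and from 3850 to 4346 in double-null against Nrf2-null. Passes in that setting therefore carry less weight.

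The labels give no pairing of libraries by replicate number. The correlations that follow cannot exclude one, because deviations mirror each other in groups of 2 libraries. Deviations of same-numbered libraries correlated at -0.11 to 0.29 over the comparisons, the highest between double-null and miR-144/451-null replicate 1, and in no comparison was every pair over 0.1. With the replicate block 7 of the 10 genes, Hsph1 among them (adjusted p = 0.0137, edgeR), were called in double-null against Nrf2-null. That stands beside 24.6% of all tested genes. Hsf1 missed the threshold with this block (adjusted p = 0.0549, edgeR) for double-null against wild type. No called fold change turned its direction. Of uncalled ones, these did. Without scaling, which moved the median of all genes to 0.15 for miR-144/451-null set against wild type, to -0.24 in double-null against miR-144/451-null and to -0.11 in double-null against wild type, Hsph1 was at 0.025, -0.15 and -0.13 in those comparisons, and Hsf1 and Dnajb1 were at -0.073 and -0.024 in double-null against miR-144/451-null. Without the filter, Hsph1 was at 0.012 in miR-144/451-null against wild type. In double-null against wild type, a term for sex gave Hspa1a -0.18, Hspa1b -0.32 and Hsph1 -0.39, and the replicate block gave Hspa1b -0.075 and Hsph1 -0.16. The block gave Hsph1 -0.15 in double-null against miR-144/451-null. With a library left out, Hsp90aa1 ran over -0.18 to 0.021 in double-null against Nrf2-null. In miR-144/451-null against wild type, Hspa8 ran over -0.087 to 0.52, Bag3 -0.082 to 0.92, Hsph1 -0.44 to 0.55 and Hspd1 -0.062 to 0.65. In Nrf2-null against wild type Hspa8 ran over -0.37 to 0.26. In double-null against miR-144/451-null, Dnajb1 ran over -1e-04 to 0.35, Hsph1 -0.24 to 0.36, Hsp90aa1 -0.0799 to 0.073 and Hsp90ab1 -0.16 to 0.053. In double-null against wild type, Hspa1a ran over -0.047 to 1.01, Hspa1b -0.20 to 0.55, Hsph1 -0.39 to 0.60 and Hspd1 -0.51 to 0.22. For the interaction, Hspa8 ran over -0.025 to 0.59 and Dnajb1 -0.29 to 0.067. The cause of these changes was not tested. The male-only setting was run where both groups held male libraries. With 2 or 3 libraries a group, their number limits these comparisons. Hspa1a, the lowest of the 10 by count, had at least 64 counts in each library.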
